A study of Homo sapiens and Mus musculus with 41 samples.

Results

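The interleukin-1 family genes described here are 9 in number: the ligand genes IL1A, IL1B, IL1RN, IL18 and IL33 and the receptor genes IL1R1, IL1R2, IL1RAP and IL1RL1. They were taken by gene symbol, ignoring case, from the 4 deposited tables of normalized counts, and each table held all 9 of them, among 23368 genes in each human table and 23337 in the mouse table. The study sequenced polyadenylated RNA of cultured tumour lines that express green fluorescent protein (GFP), in 41 libraries. The 4 models were HCC1954, a human breast carcinoma line labelled with raised HER2; MDA-MB-231, a human breast carcinoma line labelled ER-, PR- and HER2-; PC9, a human lung adenocarcinoma line labelled with raised EGFR; and LLC, a mouse line from Lewis lung carcinoma of C57/B6. Each model was profiled as Lep (a leptomeningeal metastatic derivative), Int (an intermediate stage derivative), BrM (a brain metastatic derivative) and Par (the parental line).

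HCC1954 had 3 Lep, 2 Int, 2 BrM and 3 Par libraries. MDA-MB-231 and PC9 each had 2 Lep, 2 Int, 3 BrM and 3 Par libraries, and LLC had 3 Lep, 2 Int, 3 BrM and 3 Par libraries. The protocol describes derivative cells washed out of the leptomeningeal space of mice, cultured until the population was uniformly GFP-positive and passaged before RNA was taken. The BrM cells are titled brain metastatic derivatives, so a leptomeningeal source is not taken to hold for them. All values are those of cells in culture, in DMEM for MDA-MB-231 and LLC and in RPMI1640 for PC9 and HCC1954, each with serum. No age or treatment of the mice is given in the labels, and nothing there separates independent derivatives from repeats of 1 derivative. By the labels the Par libraries are technical repeats and those of Int and Lep mix both kinds of replicate, so the p-values below measure the spread between these libraries.

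Interleukin-1 alpha and interleukin-1 beta, encoded by IL1A and IL1B, are inflammatory cytokines that act on the same receptor. The receptor IL1R1 binds them, recruits the co-receptor IL1RAP and signals to NF-kB and MAP kinases, which switch on chemokine, cytokine and prostaglandin genes and also IL1A and IL1B themselves. The receptor antagonist (IL1RN) occupies IL1R1 without signalling, and IL1R2 is a decoy receptor that binds interleukin-1 but lacks a signalling domain. Interleukin-18 and interleukin-33 are related ligands; interleukin-33 acts through ST2, the product of IL1RL1, again with IL1RAP. Interleukin-1 beta and interleukin-18 are released after cleavage by caspase-1 in the inflammasome, a step that transcript levels do not show.

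In the human genome IL1A, IL1B and IL1RN stand in 1 cluster with the interleukin-36 and interleukin-37 genes, in the order IL1A, IL1B, IL37, IL36G, IL36A, IL36B, IL36RN, IL1F10 and IL1RN, and IL1R2, IL1R1, IL1RL2, IL1RL1, IL18R1 and IL18RAP stand in a second cluster on the same chromosome (chromosome 2; order from RefSeq, GRCh38.p14). IL1RAP lies on chromosome 3, IL18 on chromosome 11 and IL33 on chromosome 9. RefSeq promoter windows, running from 250 bases before to 50 bases after a gene start on GRCh38.p14, were found for 8 of the 9 genes. The 4 printed below, 1 for each gene, belong to those of the 9 genes with the largest rises in HCC1954 Lep cells against Par (IL1A, IL1B and IL1R2) and to the antagonist gene of the ligand cluster (IL1RN), each 5′ to 3′ on the gene's own strand. Capitals mark matches to AP-1 (TGANTCA) or to the TATA box (TATAAA). Both were searched on both strands, as was the NF-kB consensus, which had no match in these windows. Of 35116 promoter windows of this length, 7.71% held the AP-1 motif, 11.5% the TATA box and 5.91% the NF-kB consensus.
IL1A, minus strand, chr2:112784351-112784650: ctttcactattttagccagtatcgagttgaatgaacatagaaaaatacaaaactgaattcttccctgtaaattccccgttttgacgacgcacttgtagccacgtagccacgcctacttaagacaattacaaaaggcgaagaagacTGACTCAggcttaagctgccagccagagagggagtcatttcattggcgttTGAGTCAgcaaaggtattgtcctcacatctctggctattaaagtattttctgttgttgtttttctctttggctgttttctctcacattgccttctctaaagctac
IL1B, minus strand, chr2:112836730-112837029: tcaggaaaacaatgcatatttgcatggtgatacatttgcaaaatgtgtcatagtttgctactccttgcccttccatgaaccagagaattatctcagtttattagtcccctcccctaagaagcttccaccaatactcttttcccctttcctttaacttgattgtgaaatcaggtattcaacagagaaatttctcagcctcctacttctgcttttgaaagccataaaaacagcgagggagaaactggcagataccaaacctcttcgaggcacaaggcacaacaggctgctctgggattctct
IL1RN, plus strand, chr2:113127348-113127647: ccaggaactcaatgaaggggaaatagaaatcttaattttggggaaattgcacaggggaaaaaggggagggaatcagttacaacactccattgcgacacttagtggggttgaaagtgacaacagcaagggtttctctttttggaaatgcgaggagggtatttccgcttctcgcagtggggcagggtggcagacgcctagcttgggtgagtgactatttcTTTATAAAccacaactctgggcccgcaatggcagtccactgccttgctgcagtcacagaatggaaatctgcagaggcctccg
IL1R2, plus strand, chr2:101991710-101992009: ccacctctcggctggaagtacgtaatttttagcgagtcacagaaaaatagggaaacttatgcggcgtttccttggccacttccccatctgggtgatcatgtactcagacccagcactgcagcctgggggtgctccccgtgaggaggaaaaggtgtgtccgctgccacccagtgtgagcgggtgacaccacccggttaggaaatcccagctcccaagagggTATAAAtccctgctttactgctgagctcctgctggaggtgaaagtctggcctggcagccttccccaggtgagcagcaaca
The IL1A window held 2 AP-1 matches, at -105 to -99 and at -55 to -49 bases from the start. A TATA box lay at -30 to -25 in the IL1RN window, overlapping a match on the other strand at -32 to -27, and at -30 to -25 in the IL1R2 window. None of the 3 motifs was found in the IL1B window, which says only that these letters are absent there. A match is a description of the letters, not a site shown to be used. IL1A, IL1RN and IL1R2 have further annotated starts, whose windows are not shown, and an AP-1 match lay at -223 to -217 in another IL1RN window.

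Values are the authors' normalized counts, that is read counts that the authors scaled by a size factor for each library, and each table was scaled on its own, so levels are compared within a model. HCC1954 libraries held 25330801 to 67367833 recovered reads each, MDA-MB-231 libraries 23508951 to 110830546, PC9 libraries 16792027 to 38432963 and LLC libraries 18029707 to 67939274. Differences between replicates exceeded counting noise in every pair, with a chi-square per degree of freedom of 1.53 to 454, and the largest value belonged to a pair of MDA-MB-231 Par libraries. Log2 fold changes are on the log2(value + 1) scale, with standard errors; group means are given ± SD over libraries. A gene was called when the limma test gave a Benjamini-Hochberg adjusted p below 0.05 over all genes tested and a log2 fold change of at least 1 in size. Only genes that reached a value of 10 in 2 or more libraries were tested, which took in 9 of the 9 genes for HCC1954, 6 for MDA-MB-231, 8 for PC9 and 7 for LLC. The 7 tumour line markers were detected in every group, apart from Epcam, which was at 0 in the Int and BrM libraries of LLC. The library kit does not mark strand, so reads of overlapping or antisense transcripts cannot be told apart from those of the named gene.

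The interleukin-1 family was shifted upward in HCC1954 Lep cells. Set against Par, 6 of 9 genes were called higher and 0 lower, where 13% of all genes tested were called higher and 13.8% lower, and the median log2 fold change of the 9 was 1.49, against -0.02 over all genes. Int with Par gave 2 higher and 0 lower of 9, beside 6.6% and 14.6% of all genes. BrM with Par gave 1 higher and 2 lower, beside 9.63% and 14%. Against the other derivatives, Lep had 4 genes higher and 1 lower than Int (11.7% and 3.47% of all genes) and 5 higher and 0 lower than BrM (10.5% and 6.54%).

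In MDA-MB-231 the replicates spread more widely and few genes of any kind were called. Lep with Par gave 0 calls among the 6 genes tested, beside 0.0199% of all genes higher and 0.0463% lower, with 4 of the 6 at an unadjusted limma p under 0.05. By edgeR 0 of them were called (0.053% of all genes), and by DESeq2 3 (1.82%). Int with Par gave 4 higher and 0 lower of 6, beside 4.33% and 2.61%. These 4 became 0 without Int replicate 1, without Int replicate 2 or without Par replicate 2 and 1 without Par replicate 3, with their log2 fold changes still positive.

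BrM with Par gave 0 calls in MDA-MB-231 (0.344% of all genes higher and 0.106% lower), with 0 at an unadjusted limma p under 0.05, 0 by edgeR (0.324% of all genes) and 0 by DESeq2 (3.12%). Lep with Int gave 0 (0.0265% and 0.132%), with 1 at an unadjusted p under 0.05, 0 by edgeR (0.119%) and 0 by DESeq2 (3.12%). Lep with BrM gave 1 higher and 0 lower (0.344% and 0.483%).

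Few PC9 genes of the family were called. Of 8 tested, 0 were called in Lep with Par, beside 6.65% of all genes higher and 8.49% lower; 4 had an unadjusted limma p under 0.05, and 0 were called by edgeR (15.3% of all genes) or by DESeq2 (14.4%). BrM with Par gave 0 as well (4.62% and 3.1%), with 5 at an unadjusted p under 0.05 and 0 by edgeR (7.58%) or by DESeq2 (6.83%). Int with Par gave 1 gene higher and 0 lower (6.24% and 7.71%), Lep with Int 1 higher and 0 lower (0.228% and 0.38%) and Lep with BrM 1 higher and 0 lower (7.83% and 10.8%).

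In LLC most calls fell on Il1r2, Il1rl1 and Il33. Lep with Par gave 2 higher and 2 lower of 7 genes tested (8% of all genes higher and 12.3% lower), Int with Par 3 higher and 0 lower (6.4% and 5.08%) and BrM with Par 1 higher and 3 lower (8.14% and 15.1%). Lep had 0 higher and 2 lower than Int (8.47% and 14%) and 5 higher and 0 lower than BrM (11.1% and 6.85%). The 5 comparisons within a model share libraries, so their counts are not independent of each other. Fewer cells with a transcript and less of it per cell cannot be told apart in these bulk libraries.

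**Figure D1:**
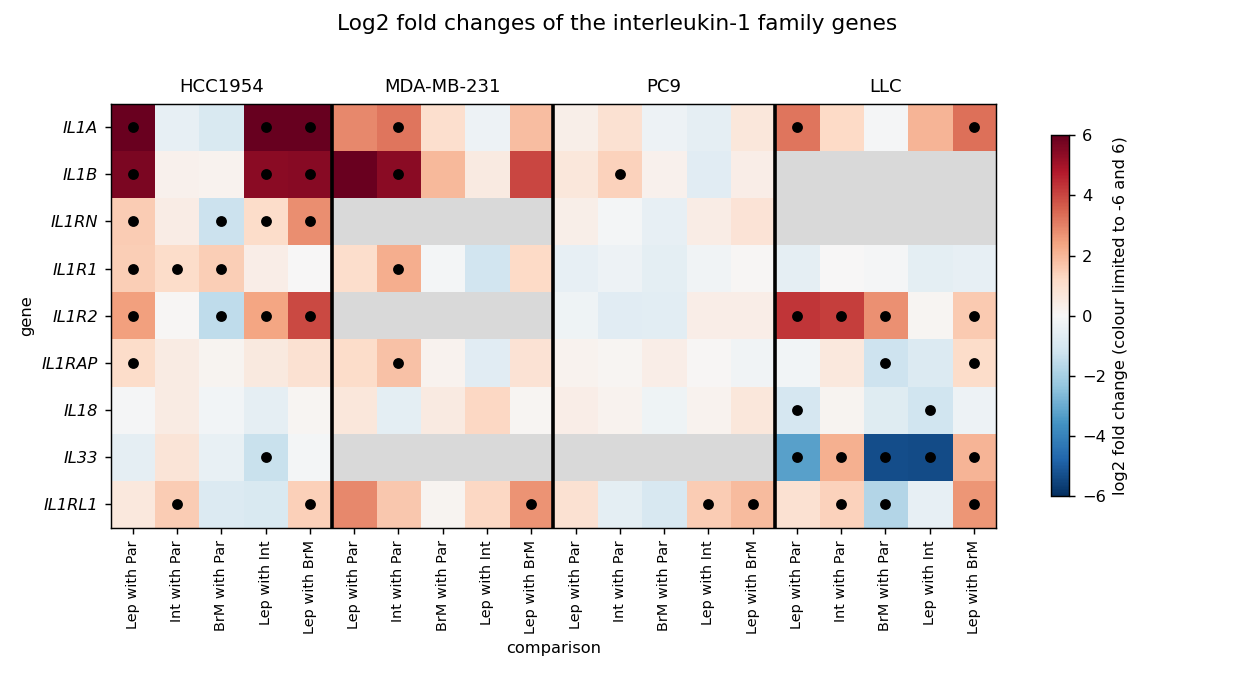
Log2 fold change of each gene (rows) in the 5 comparisons of each model (columns), red higher and blue lower in the first-named group, colour limited to -6 and 6; black points mark called genes and grey cells genes that were not tested. The 2 interleukin-1 agonist genes were called in HCC1954 wherever Lep was compared, while Il1r2, Il1rl1 and Il33 carried most calls in LLC.

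The agonist gene IL1A was low in all HCC1954 groups except Lep. Its normalized counts were 1740, 1594 and 1330 in Lep, 12.1 and 24.1 in Int, 7.77 and 18.8 in BrM, and 19.7, 28.4 and 25.0 in Par. Every Lep library lay far above every other library, while Int overlapped both BrM and Par. IL1A was 61.5-fold higher in Lep than in Par, a log2 fold change of 5.94 ± 0.29 with a limma adjusted p of 3.2e-10, which ranged from 5.73 to 6.31 over the alternatives and was called in all of them. Lep exceeded Int by 6.41 ± 0.32 and BrM by 6.88 ± 0.32 on the log2 scale. BrM with Par, at -0.93 ± 0.32, was not called, but was called without BrM replicate 2 (-1.52) and without Par replicate 1.

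IL1B, the gene of the main secreted agonist, had 6186, 5888 and 4710 normalized counts in HCC1954 Lep, 71.1 and 237 in Int, 123 and 128 in BrM, and 121, 88.9 and 117 in Par. Again the Lep libraries stood alone, and the 2 Int libraries differed so much that they enclosed all BrM and Par values. The log2 fold change was 5.67 ± 0.30 against Par (adjusted p = 7.8e-10), 5.41 ± 0.34 against Int and 5.46 ± 0.34 against BrM. Against Int it was 4.55 without Int replicate 1 and 6.27 without Int replicate 2, and Int with Par, at 0.26 with all libraries, was called higher without Int replicate 1 (1.12) and was -0.60 without Int replicate 2. In both genes the Lep libraries held close values, and the number of IL1B reads per IL1A read was 3.54 to 3.69 in Lep and 3.12 to 6.11 in Par, so it did not separate these groups.

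Markers of leukocytes were measured in the same HCC1954 libraries. The 12 macrophage and microglia markers summed to 2588 to 2869 normalized counts in Lep, 1105 to 1439 in Int, 1050 to 1092 in BrM and 2928 to 3003 in Par. TYROBP and CD163 were at 0 in Lep and Int, and TYROBP also in BrM. Of 5 tested, EMR1 was called higher and CD14 lower in Lep with Par (13% and 13.8% of all genes). In Lep with Int, CD68, CSF1R and CD14 were called higher and 0 lower (11.7% and 3.47%). The 6 neutrophil markers, among them S100A8 and S100A9, which epithelial cells also express, summed to 838320 to 902370 in Lep, 396279 to 444855 in Int, 393340 to 429620 in BrM and 108315 to 113063 in Par. The 3 neutrophil markers tested, S100A8, S100A9 and CSF3R, were all called higher in Lep with Par. The part of leukocytes in the IL1A and IL1B values was not tested.

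**Figure D2:**
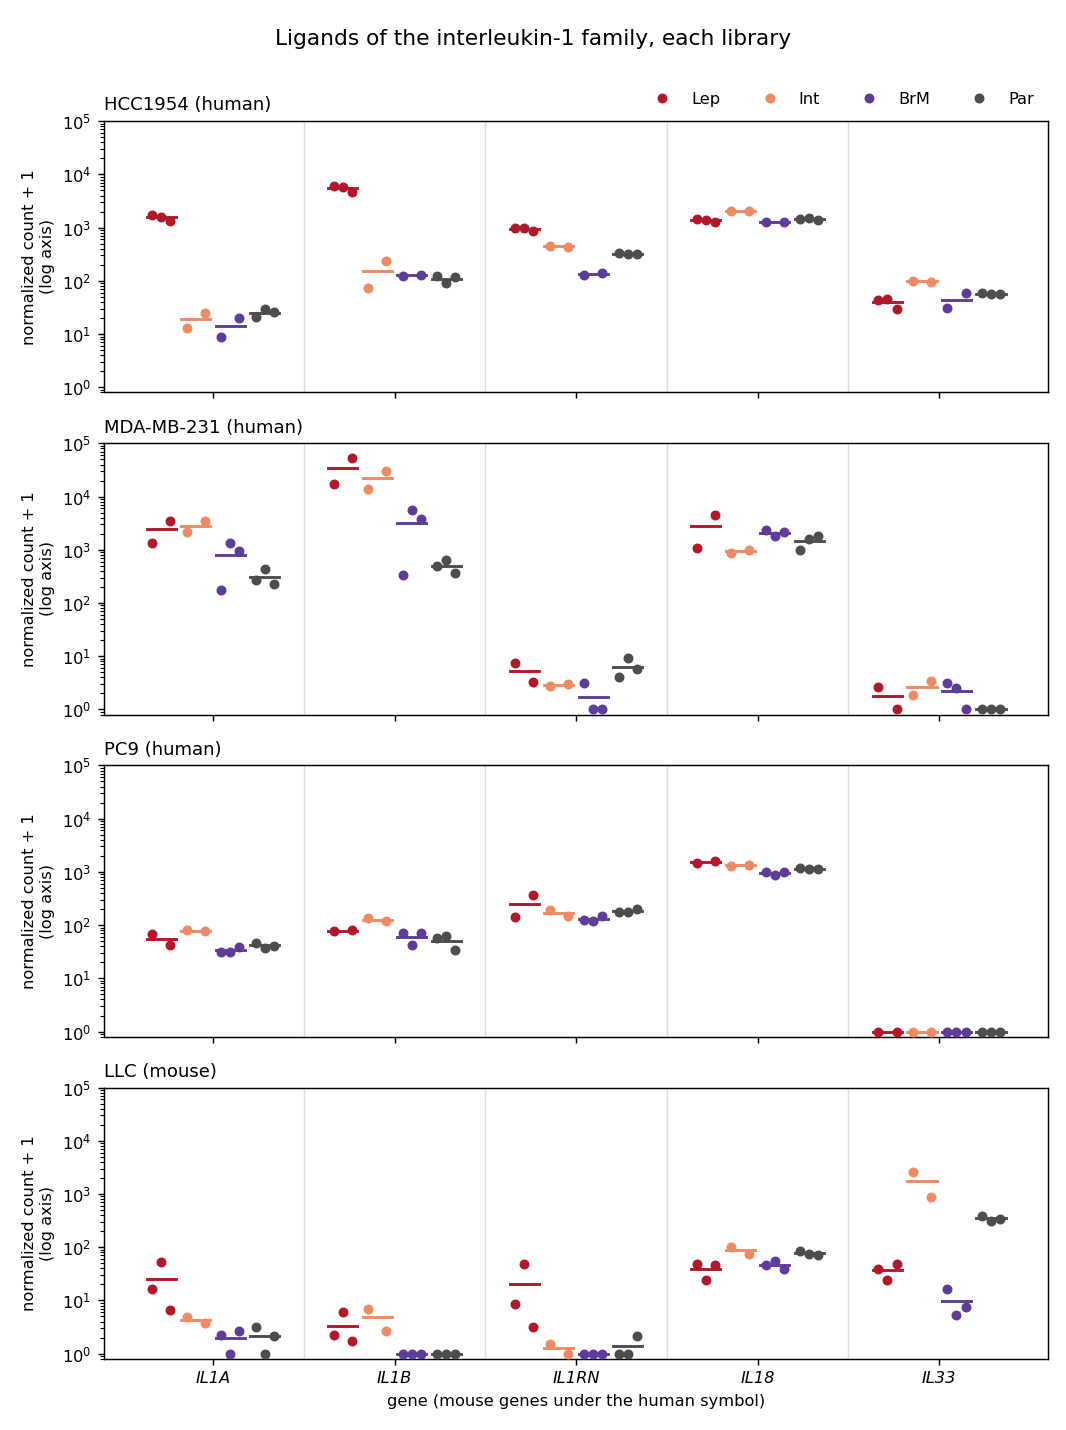
Normalized count plus 1 (log axis) of the 5 ligand genes in each library, by model; points are libraries, bars are group means, and Lep, Int, BrM and Par run left to right within a gene. IL1A and IL1B of HCC1954 Lep sit between 1330 and 6186, above all other HCC1954 libraries, and in MDA-MB-231 both Lep and Int lie above all Par libraries.

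IL1B was the most abundant gene of the family per kilobase in MDA-MB-231 Lep and Int cells. IL1B had 17391 and 52162 normalized counts in Lep, 14114 and 30439 in Int, 330, 5541 and 3733 in BrM, and 487, 639 and 370 in Par. All Lep and Int libraries lay above all Par libraries; 2 of the 3 BrM libraries lay between, and BrM replicate 1 lay below every Par library. The log2 fold change against Par was 5.41 ± 1.04 in Int (adjusted p = 0.022, called) and 5.95 ± 1.04 in Lep (adjusted p = 0.082, not called). The Lep difference was called by DESeq2, when only the Lep and Par libraries were fitted, and with a trend in transcript length removed (6.07), and its adjusted p ran from 1.1e-06 to 0.21 over the alternatives.

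IL1A followed a like order in MDA-MB-231, with 1363 and 3490 normalized counts in Lep, 2156 and 3405 in Int, 174, 1313 and 936 in BrM, and 265, 425 and 223 in Par. Lep and Int overlapped each other and lay above Par without overlap, and the low BrM library was again replicate 1. IL1A was called in Int with Par, at 3.20 ± 0.78 (adjusted p = 0.038), and had a log2 fold change of 2.89 ± 0.78 in Lep with Par (adjusted p = 0.25), where DESeq2 called it. The Int call was lost without the filter on low values (adjusted p = 0.052). The proportion between the agonists shifted as well: a library held 12.8 to 14.9 IL1B reads per IL1A read in Lep, 6.55 to 8.94 in Int, 1.9 to 4.22 in BrM and 1.5 to 1.84 in Par. These ranges did not overlap, but they were not tested, and reads per read do not correct for transcript length.

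PC9 cells had little of either agonist transcript. IL1B had 74.8 and 81.1 normalized counts in Lep, 133 and 118 in Int, 69.4, 40.7 and 69.4 in BrM, and 55.2, 62.3 and 32.4 in Par. Int stood above the other groups and Lep just above BrM and Par. Int with Par was called, at 1.36 ± 0.28 (adjusted p = 9.5e-04), but the value fell to 0.99, short of the threshold, once a trend with transcript length was removed; the Int and Lep libraries of PC9 had negative rank correlations of their deviations with exon length (-0.49 to -0.38) and the BrM and Par libraries positive ones (0.27 to 0.41). IL1A ranged from 41.0 to 66.0 in Lep, 76.2 to 78.6 in Int, 30.2 to 37.6 in BrM and 36.6 to 45.4 in Par, and was not called in any PC9 comparison; without Par replicate 1, Int with Par was called, at 1.01.

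Both agonists were close to absent in mouse LLC cells. Il1a had 15.3, 51.1 and 5.62 normalized counts in Lep (12, 40 and 8 reads), 3.84 and 2.81 in Int, 1.27, 0 and 1.65 in BrM, and 2.13, 0 and 1.19 in Par. All Lep libraries were above all others, and replicate 2 held most of the reads. Il1a was called higher in Lep than in Par, at 3.23 ± 0.74 (adjusted p = 0.0036), and than in BrM, at 3.29 ± 0.74; it entered the test only through its 2 highest Lep libraries, so a difference was built into its selection. The size of the difference from Par varied between 1.93 and 4.46 over the alternatives, and was 2.45 without Lep replicate 2. Lep with Int, at 2.05, was not called, but was called with pseudocount 5, edgeR, DESeq2, quantile normalization and without Lep replicate 3.

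Il1b was not tested in LLC. The Lep libraries held 1, 4 and 1 reads and the Int libraries 11 and 3. All 6 BrM and Par libraries had 0 reads, which allows up to 3 reads in each by counting error alone. Lep replicate 2 of LLC also stood apart in some leukocyte genes. Ptprc, the common leukocyte antigen, was at 5.11, 21.7 and 4.92 normalized counts in Lep replicates 1, 2 and 3. Csf1r, a macrophage receptor, was at 1.28, 48.6 and 0.703, and S100a8, a neutrophil calprotectin subunit, at 1.28, 32.0 and 2.11. In Par, Ptprc, Csf1r and S100a8 were at 0 to 0.711, 0 to 0.664 and 0 to 1.33. Among the Lep libraries, Itgam, Cd14, Tyrobp and Mpo were also highest in replicate 2. Cd68 (238, 208 and 125) and Cx3cr1 (12.8, 5.11 and 3.51) were highest in replicate 1, and S100a9 was at 0 in all Lep libraries. Over the 10 macrophage and microglia markers in the table, the summed level was 592 to 1045 in Lep, 5613 to 6004 in Int, 790 to 1026 in BrM and 653 to 707 in Par, with Tyrobp and Cd163 at 0 in Int. The 6 neutrophil markers summed to 4.22 to 40.9 in Lep, 3.38 to 4.38 in Int, 2.18 to 5.07 in BrM and 1.19 to 1.42 in Par. Host cells of LLC tumours are also mouse cells, and the part of other cells in the Il1a values was not tested.

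The receptor antagonist gene IL1RN was expressed throughout HCC1954, with 978, 983 and 865 normalized counts in Lep, 448 and 435 in Int, 129 and 137 in BrM, and 336, 325 and 316 in Par. The 4 groups did not overlap and ran in the order Lep, Int, Par and BrM. IL1RN rose in Lep by 1.53 ± 0.07 against Par, by 1.09 ± 0.08 against Int and by 2.81 ± 0.08 against BrM, and fell by 1.28 ± 0.08 in BrM against Par. The call against Int ended under quantile normalization, at 0.98.

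In HCC1954 the number of agonist reads per antagonist read was highest in Lep. HCC1954 Lep libraries held 5.45 to 6.32 IL1B reads per IL1RN read, whereas Int held 0.159 to 0.543, BrM 0.939 to 0.95 and Par 0.274 to 0.371, so Int overlapped Par and BrM lay above it. For IL1A the ratio was 1.54 to 1.78 in Lep, 0.0271 to 0.0554 in Int and 0.0588 to 0.0876 in Par. BrM replicate 1 held only 6 IL1A reads, so no IL1A ratio is given for BrM. In PC9 the antagonist had 144 and 362 normalized counts in Lep, 193 and 147 in Int, 125, 120 and 150 in BrM, and 175, 176 and 196 in Par, and it was not called in any comparison; the 2 Lep libraries lay apart, and without Lep replicate 1 IL1RN was called higher in Lep than in Int (1.10) and than in BrM (1.46). IL1B reads per IL1RN read were highest in Int in PC9, at 0.691 to 0.8. Lep held 0.224 to 0.518, BrM 0.341 to 0.557 and Par 0.166 to 0.354. PC9 IL1A reads per IL1RN read were 0.113 to 0.457 in Lep and 0.407 to 0.517 in Int. MDA-MB-231 libraries had 0 to 10 IL1RN reads each and were not tested for it.

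Il1rn in LLC was likewise too low to test. It had 6, 37 and 3 reads in Lep, 1 and 0 in Int, 0 in each BrM library, and 0, 0 and 1 in Par. The highest value again belonged to Lep replicate 2, which also had the highest Il1a, Ptprc, Csf1r and S100a8 values.

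IL18, whose product needs caspase-1 for release, was well expressed in all human models and differed by less than the call threshold in HCC1954 and PC9. It had 1453, 1403 and 1296 normalized counts in HCC1954 Lep, 2034 and 2013 in Int, 1286 and 1283 in BrM, and 1460, 1522 and 1397 in Par; Int was above the others, and Lep overlapped Par. In PC9 the values were 1439 and 1627 in Lep, 1311 and 1371 in Int, 974, 878 and 978 in BrM, and 1158, 1152 and 1111 in Par, in an order of Lep, Int, Par and BrM without overlap. This order depended on the processing: with the length trend removed, the log2 fold change became -0.03 in Lep with Par, in place of 0.42, and -0.23 in Int with Par, in place of 0.23. None of the IL18 differences reached a log2 fold change of 1, and none was called in HCC1954 or PC9.

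The 2 MDA-MB-231 Lep libraries disagreed on IL18, with 1083 and 4584 normalized counts, beside 881 and 1010 in Int, 2368, 1798 and 2113 in BrM, and 980, 1561 and 1836 in Par. Lep overlapped BrM and Par, and IL18 was not called in any comparison; without Lep replicate 1, Lep with Int was called, at 2.28. In LLC, Il18 had 47.3, 23.0 and 45.7 in Lep, 99.2 and 74.3 in Int, 44.4, 54.6 and 37.9 in BrM, and 83.2, 74.4 and 71.3 in Par. It fell by 1.03 ± 0.30 in Lep against Par (adjusted p = 0.014), and its log2 fold change in Lep with Int was -1.20 ± 0.34. The first of these calls ended with pseudocount 5, with edgeR, with DESeq2, with quantile normalization, without Lep replicate 2 (-0.70) and without Par replicate 1, and the second with quantile normalization, when only the 2 groups were fitted, without Lep replicate 2 (-0.87) and without Int replicate 1.

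IL33, the gene of a nuclear cytokine released from damaged cells, had its widest range in LLC. Il33 had 38.3, 23.0 and 47.8 normalized counts in Lep, 2583 and 864 in Int, 15.2, 4.37 and 6.59 in BrM, and 393, 310 and 339 in Par. The groups did not overlap and ran in the order Int, Par, Lep and BrM, with the Int libraries far from each other. Against Par, Il33 fell by 3.27 ± 0.45 in Lep (adjusted p = 1.3e-04), fell by 5.32 ± 0.45 in BrM and rose by 2.11 ± 0.51 in Int (adjusted p = 0.010). The Int call ended without Int replicate 1, at 1.32. Lep was lower than Int by a log2 fold change of -5.38 ± 0.51 and higher than BrM by 2.04 ± 0.45.

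The Int libraries of LLC that were high in Il33 were also high in Cd68, a lysosomal gene used as a macrophage marker, at 5159 to 5585 normalized counts, while Lep had 125 to 238, BrM 173 to 188 and Par 201 to 239. Cx3cr1, from the same list of macrophage and microglia markers, was also highest in Int, at 19.2 and 67.0. It was at 3.51 to 12.8 in Lep, 7.61 to 13.2 in BrM and 0.664 to 2.38 in Par. Cd14 was lowest in Int, at 391 and 382. Ptprc was at 2.25 to 3.84 in the same Int libraries, and their Tyrobp and Cd163 were at 0. Human lines had little IL33. HCC1954 showed 42.2, 45.4 and 28.8 in Lep, 98.5 and 94.4 in Int, 29.8 and 57.4 in BrM, and 57.0, 55.7 and 55.3 in Par, where Int was highest, Lep lay below Par and BrM overlapped both Lep and Par. Lep with Int was called (-1.32 ± 0.26), and Int with Par, at 0.77, was called with quantile normalization (1.43). MDA-MB-231 had 0 to 5 IL33 reads in any library, and PC9 had 0 in all 10 libraries, which allows up to 3 reads in each.

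The signalling receptor gene IL1R1 was higher in every HCC1954 derivative than in the parental line. Its normalized counts were 3752, 3802 and 3445 in Lep, 2764 and 2857 in Int, 3445 and 3694 in BrM, and 1297, 1302 and 1299 in Par. Lep and BrM overlapped, Int lay below them, and the Par libraries were nearly equal. IL1R1 rose against Par by 1.49 ± 0.04 in Lep, 1.11 ± 0.05 in Int and 1.46 ± 0.05 in BrM, and these calls held under every alternative. Its co-receptor gene IL1RAP had 4153, 4118 and 3849 in Lep, 2514 and 2893 in Int, 2048 and 2178 in BrM, and 2005, 1837 and 1884 in Par. Lep was highest without overlap, and the call of 1.08 ± 0.05 against Par was the only one for IL1RAP in HCC1954.

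MDA-MB-231 IL1R1 had 462 and 217 normalized counts in Lep, 628 and 765 in Int, 174, 133 and 117 in BrM, and 253, 225 and 63.1 in Par; Int was above every other library and Lep overlapped Par. IL1RAP followed with 709 and 948 in Lep, 1285 and 1329 in Int, 395, 465 and 484 in BrM, and 578, 480 and 209 in Par, where Int was highest and Lep lay above BrM and Par. Both receptor genes were called in Int with Par, at 2.17 ± 0.57 (adjusted p = 0.045) and 1.75 ± 0.38 (adjusted p = 0.028). When only Int and Par libraries were fitted neither was called, and without the filter on low values IL1R1 was not called (adjusted p = 0.062). In these libraries too, deviations followed exon length, with a rank correlation of 0.45 and 0.46 in Int but 0.49, -0.35 and -0.46 in Par.

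Neither gene was called in PC9. IL1R1 had 428 and 283 normalized counts in Lep, 377 and 432 in Int, 305 to 362 in BrM and 440 to 536 in Par, which lay above all derivative libraries, although with the length trend removed Int with Par was 0.02, in place of -0.30. IL1RAP stayed within 220 to 328 over all PC9 libraries. LLC cells were rich in Il1r1, with 3733 to 4524 in Lep, 4829 to 8086 in Int, 4725 to 6550 in BrM and 5769 to 6590 in Par, and it was not called in any comparison. Il1rap had 1656, 1955 and 1456 in Lep, 3363 and 2532 in Int, 908, 609 and 904 in BrM, and 1844, 1797 and 1931 in Par. It fell by 1.22 ± 0.18 in BrM against Par, and Lep exceeded BrM by 1.08 ± 0.18, a call that ended without Lep replicate 2 (0.97) or without BrM replicate 2 (0.89). Lep with Int, at -0.80, was called without Int replicate 2.

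The decoy receptor gene IL1R2 changed in 2 models. HCC1954 had 217, 185 and 190 normalized counts in Lep, 31.1 and 45.1 in Int, 12.9 and 10.4 in BrM, and 40.6, 39.1 and 27.7 in Par. Lep was highest, BrM lowest, and Int overlapped Par. IL1R2 rose in Lep by 2.45 ± 0.20 against Par, 2.36 ± 0.22 against Int and 3.97 ± 0.22 against BrM. In BrM it fell by 1.52 ± 0.22 against Par, a call that ended under quantile normalization (-0.99). The signalling and decoy receptors thus stood in different proportions, with 17.3 to 20.6 IL1R1 reads per IL1R2 read in Lep, 63.3 to 88.9 in Int, 266 to 354 in BrM and 31.9 to 47.0 in Par.

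In LLC, Il1r2 was higher in all derivatives: 86.9, 138 and 135 normalized counts in Lep, 136 and 83.8 in Int, 31.7, 41.5 and 44.4 in BrM, and 4.98, 5.31 and 4.76 in Par. Lep and Int overlapped, BrM lay between, and Par was far below. Against Par the gene rose by 4.30 ± 0.30 in Lep (adjusted p = 8.1e-07), by 4.17 ± 0.33 in Int and by 2.73 ± 0.30 in BrM, and Lep exceeded BrM by 1.57 ± 0.30; all 4 calls held under every alternative. Il1r2 was under 10 in every Par library and entered the test through derivative libraries alone, so a difference from Par was built into its selection. PC9 showed no call for IL1R2, with 233 to 237 in Lep, 157 to 195 in Int, 166 to 197 in BrM and 241 to 315 in Par, all derivative libraries lying below Par. MDA-MB-231 had 0 to 12 IL1R2 reads per library and was not tested.

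**Figure D3:**
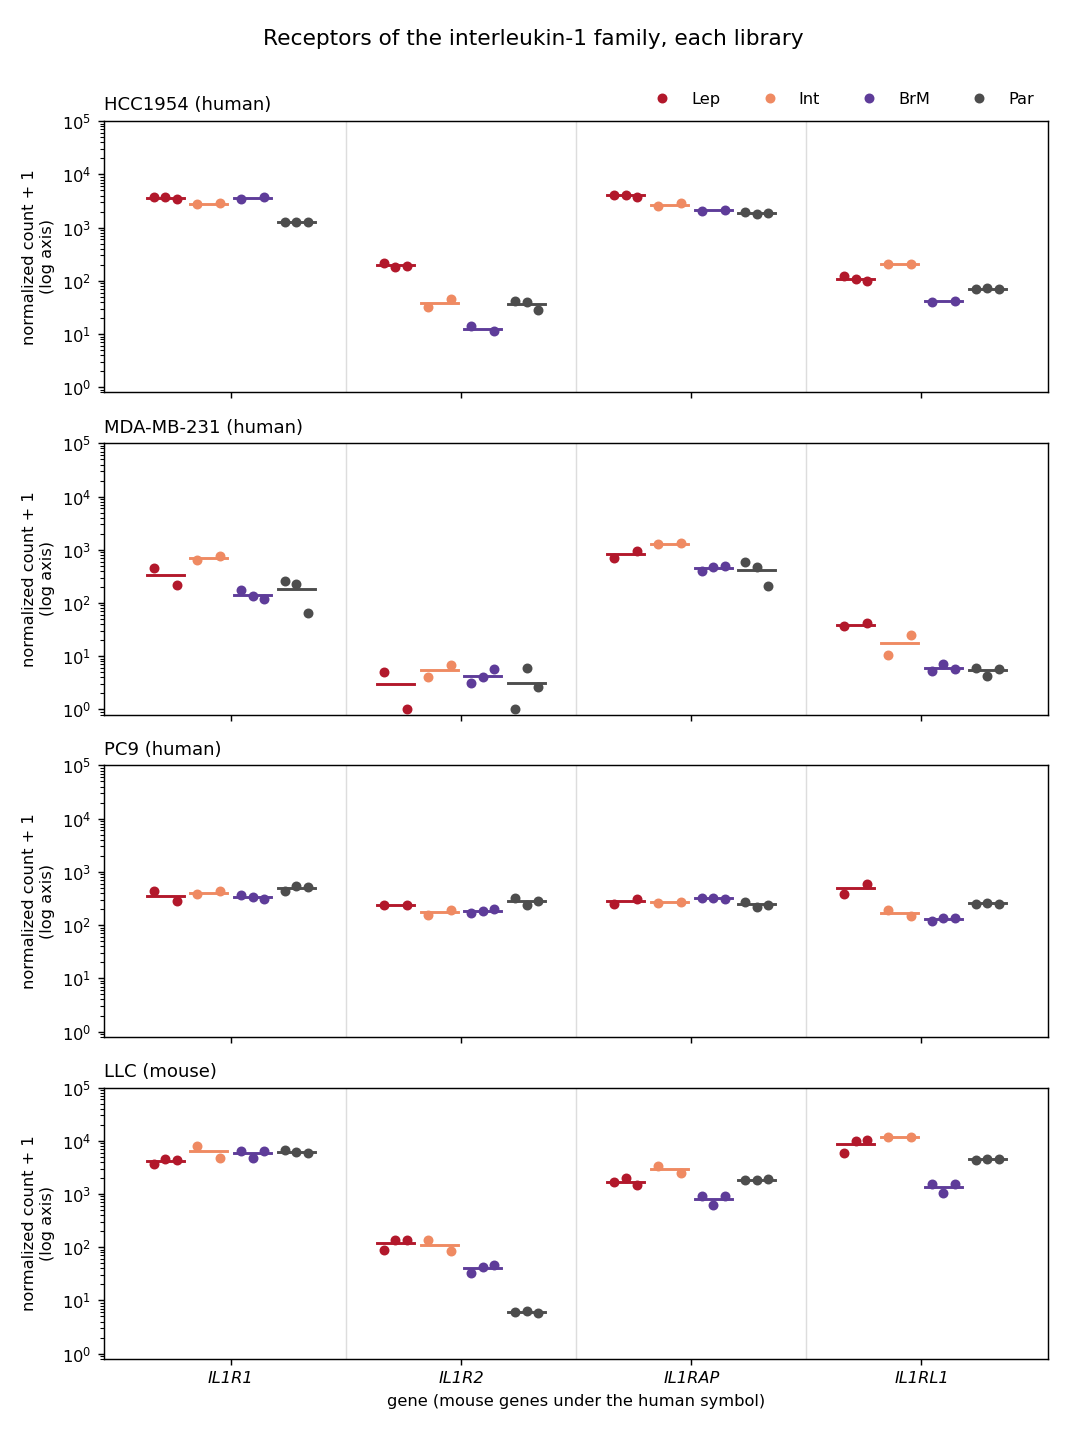
Normalized count plus 1 (log axis) of the 4 receptor genes in each library, by model; points are libraries, bars are group means, and Lep, Int, BrM and Par run left to right within a gene. Il1r2 of LLC sits between 83.8 and 138 in Lep and Int and near 5 in Par, and Il1rl1 of LLC is lowest in BrM.

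IL1RL1, which encodes the interleukin-33 receptor ST2, was abundant in LLC and scarce in MDA-MB-231. Il1rl1 of LLC had 5810, 10043 and 10383 normalized counts in Lep, 11954 and 11958 in Int, 1518, 1057 and 1523 in BrM, and 4437, 4532 and 4618 in Par, an order of Int, Lep, Par and BrM without overlap. It rose in Int by 1.40 ± 0.23 against Par, fell by 1.75 ± 0.20 in BrM against Par and was higher in Lep than in BrM by 2.65 ± 0.20. Lep with Par, at 0.90 ± 0.20, missed the size threshold, and passed it without Lep replicate 1 (1.17). An LLC library held 152 to 437 Il1rl1 reads per Il33 read in Lep, 4.63 to 13.8 in Int and 11.3 to 14.6 in Par. The BrM libraries held only 12, 2 and 4 Il33 reads, so no ratio is given for BrM and Lep cannot be ranked against it.

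In PC9, IL1RL1 was the gene with the most calls: 385 and 603 normalized counts in Lep, 193 and 148 in Int, 117, 134 and 134 in BrM, and 250, 259 and 253 in Par. Lep was highest, Par next, and Int lay above BrM. It rose in Lep by 1.5 ± 0.19 against Int (adjusted p = 0.0013), a call lost when only the 2 groups were fitted (adjusted p = 0.22), and by 1.91 ± 0.17 against BrM. Against Par the value was 0.92 ± 0.17 in Lep, short of the size threshold, and it was called without Lep replicate 1 (1.25) and with the length trend removed (1.12). BrM with Par was -0.98 ± 0.15 and was called without BrM replicate 2, without BrM replicate 3 and with quantile normalization (-1.06).

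HCC1954 had 121, 108 and 98.8 normalized counts of IL1RL1 in Lep, 205 and 203 in Int, 38.8 and 41.7 in BrM, and 70.2, 72.3 and 69.8 in Par, an order of Int, Lep, Par and BrM without overlap. The gene rose in Int by 1.52 ± 0.13 against Par and in Lep by 1.41 ± 0.13 against BrM; Lep with Int, at -0.90, was called with quantile normalization (-1.19). In MDA-MB-231 it had 35.7 and 40.3 in Lep, 9.62 and 23.8 in Int, 4.29 to 6.16 in BrM and 3.29 to 5.04 in Par, so Lep was highest and BrM overlapped Par. Lep with BrM was called, at 2.70 ± 0.46 (adjusted p = 0.041), and was lost without any 1 of the 5 libraries compared, when only the 2 groups were fitted and with replicate number as a block; Lep with Par was 2.87 ± 0.46 (adjusted p = 0.071), and was called by DESeq2, with the length trend removed and without Par replicate 1. The gene entered the test through Lep and Int libraries alone, so a difference was built into its selection.

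Divided by the exon length of the current annotation (GENCODE v29, not the authors' own), the ranking of the genes differed between the human lines. In HCC1954 Lep, IL1B had 3430 normalized counts per kilobase, IL18 1185, IL1A 732, IL1R1 580, IL1RN 407, IL1RAP 406, IL1R2 106, IL1RL1 22.1 and IL33 14.3. In HCC1954 Par, IL18 led with 1250, then IL1R1 with 206, IL1RAP with 192, IL1RN with 141 and IL1B with 66.8. The MDA-MB-231 Lep ranking opened with IL1B at 21322 per kilobase, IL18 at 2426 and IL1A at 1142, against 306, 1249 and 143 for the same genes in Par. PC9 Lep was led by IL18 at 1313, with every other gene of the family at 127 or less. No length was used for the mouse genes.

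Other genes of the family and the pathway were described from lists by role. Among 7 further ligand, antagonist and binding protein genes, HCC1954 Lep with Par had 4 called higher and 1 lower of 5 tested, beside 13% and 13.8% of all genes, with a median log2 fold change of 1.83, against -0.02 over all genes. IL36G, an epithelial agonist of the interleukin-36 receptor that lies in the same cluster as IL1B, averaged 1020 ± 57.6 in Lep and 22.3 ± 6.36 in Par, and IL36RN, its antagonist, 181 ± 3.22 in Lep and 67.3 ± 15.3 in Par. IL18BP, which neutralises interleukin-18, fell by 1.03 ± 0.11, to 163 ± 6.78 in Lep, against 336 ± 39.1 in Par. In the other models 0 of 2 (MDA-MB-231), 0 of 2 (PC9) and 1 of 1 tested (LLC, Il18bp, 93.4 ± 12.5 in Lep and 35.6 ± 3.78 in Par) were called. Of 6 further receptor genes, 0 higher and 1 lower of 4 (HCC1954, IL1RL2), 0 of 4 (MDA-MB-231), 0 higher and 1 lower of 4 (PC9, IL1RAPL2) and 1 higher and 0 lower of 3 (LLC, Il18r1) were called. Beside both lists, the shares of all genes called higher and lower were 13% and 13.8% in HCC1954 and 0.0199% and 0.0463% in MDA-MB-231. They were 6.65% and 8.49% in PC9 and 8% and 12.3% in LLC. Il18rap, the interleukin-18 co-receptor gene, was at 3156 ± 458 in LLC Lep and 2371 ± 95.6 in LLC Par and near 0 in the human lines.

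Genes of the inflammasome and of ligand processing moved both ways. In HCC1954 Lep with Par, 5 of 13 tested were higher and 2 lower (median 0.43), beside 13% and 13.8% of all genes. CASP1, the caspase that cleaves interleukin-1 beta and interleukin-18, averaged 757 ± 50.8 in Lep and 229 ± 9.72 in Par, and DFNA5 (gasdermin E, a pore-forming protein) 717 ± 49.3 in Lep and 134 ± 1.61 in Par. PYCARD, the adaptor that links sensors to caspase-1, was at 1.47 ± 1.64 in Lep and 357 ± 11.2 in Par, a log2 fold change of -7.42 ± 0.59. GSDMD, the pore-forming gasdermin that caspase-1 cleaves, was lower, at 730 ± 56.0 in Lep and 2241 ± 7.35 in Par. CASP1 was also called higher, and PYCARD and GSDMD lower, in Int with Par and in BrM with Par of HCC1954. None of these genes was called in Lep with Int or Lep with BrM, whereas DFNA5 was called higher in both. PC9 went the other way for PYCARD, at 1128 ± 306 in Lep and 346 ± 28.4 in Par (1 higher and 1 lower of 10, beside 6.65% and 8.49%); the difference between the models was not tested. In LLC, Casp1 (421 ± 108 in Lep, 88.0 ± 10.1 in Par) and Casp4 (823 ± 308 in Lep, 125 ± 8.72 in Par) were higher (2 of 8, with 0 lower, beside 8% and 12.3%), and in MDA-MB-231 0 of 12 were called (0.0199% and 0.0463%).

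Adaptors and kinases close to the receptor had median log2 fold changes in Lep with Par of 0.02 in HCC1954, 0.16 in MDA-MB-231, 0.06 in PC9 and 0.01 in LLC. In HCC1954 1 of 13 was higher and 0 lower, beside 13% and 13.8% of all genes. This was PELI1, a ubiquitin ligase, at 1707 ± 94.2 in Lep and 373 ± 22.4 in Par. In MDA-MB-231 0 of 14 were called, beside 0.0199% and 0.0463%. In PC9 0 were higher and 1 of 13 lower, beside 6.65% and 8.49%. This was PELI2, at 41.6 ± 3.34 in Lep and 519 ± 29 in Par. In LLC 1 was higher and 1 lower of 14, beside 8% and 12.3%. Among 17 genes of the NF-kB and MAP kinase relay, 6 rose and 1 fell in HCC1954 (13% and 13.8% of all genes), 0 were called in MDA-MB-231 (0.0199% and 0.0463%), 3 rose and 2 fell in PC9 (6.65% and 8.49%), and 4 rose and 0 fell in LLC (8% and 12.3%). NFKBIA, the inhibitor that NF-kB itself induces, averaged 12654 ± 404 in HCC1954 Lep and 3667 ± 48.4 in HCC1954 Par, 3002 ± 340 in PC9 Lep and 1297 ± 64.6 in PC9 Par, and 3830 ± 493 in LLC Lep and 1304 ± 72.2 in LLC Par (Nfkbia). TNFAIP3, the A20 feedback inhibitor, averaged 6267 ± 94.6 in HCC1954 Lep and 1443 ± 97.6 in HCC1954 Par.

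Among genes that interleukin-1 is known to induce, more were called higher than lower in Lep with Par in every model; the list was drawn up with earlier results of these data known. In HCC1954 19 of 24 tested rose and 2 fell, beside 13% and 13.8% of all genes, with a median log2 fold change of 2.28. PTGS2, the inducible cyclooxygenase, averaged 15806 ± 474 in Lep and 613 ± 28.3 in Par, and MMP3, a matrix metalloproteinase, 2687 ± 318 in Lep and 30.0 ± 7.98 in Par. CXCL1, a neutrophil chemokine, went against the list, at 7.36 ± 2.32 in Lep and 759 ± 20.9 in Par, with the caution that CXCL1, CXCL2 and CXCL3 are near-identical and can share reads. LLC had 14 of 21 higher and 0 lower (median 2.42; 8% and 12.3% of all genes), among them Lcn2 (lipocalin-2, 230 ± 33.8 in Lep and 1.74 ± 1.39 in Par) and C3 (complement C3, 2150 ± 1823 in Lep and 23.8 ± 4.75 in Par); without Lep replicate 2 the counts were 15 and 1. PC9 had 7 of 19 higher and 0 lower (median 0.70; 6.65% and 8.49% of all genes), led by SAA1 (serum amyloid A, 1071 ± 19.3 in Lep and 143 ± 11.4 in Par), whose reads may be shared with its near-identical copy SAA2. MDA-MB-231 had 1 of 24 higher and 0 lower by limma (0.0199% and 0.0463% of all genes) and 12 higher by DESeq2 (1.82% of all genes in either direction), with a median of 2.58. In LLC, the called genes Il6, Lcn2, Csf3, Ccl20, Icam1, Cxcl2 and Csf2 averaged only 0 to 5.95 in Par. They passed the filter on low values through derivative libraries alone, so a difference was built into their selection. The same applies to CSF3 of HCC1954, at 2.85 in Par. Saa1 and Saa2 were too low in LLC to be tested.

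The same list was read against Par in the other derivatives. BrM with Par gave 16 higher and 3 lower of 24 in HCC1954 (9.63% and 14% of all genes), 1 higher and 10 lower of 19 in PC9 (4.62% and 3.1%) and 1 higher and 6 lower of 21 in LLC (8.14% and 15.1%). In MDA-MB-231 it gave 0 of 24 (0.344% and 0.106%; median 1.37), but 11 higher without BrM replicate 1 (median 2.66), 9 higher by DESeq2 and 0 by edgeR, and with replicate number as a block 0 were higher and 1 lower. Int with Par gave 14 higher and 3 lower in HCC1954 (6.6% and 14.6%), 10 higher and 0 lower in MDA-MB-231 (4.33% and 2.61%), 9 higher and 0 lower in PC9 (6.24% and 7.71%), and 14 higher and 0 lower in LLC (6.4% and 5.08%). The 10 in MDA-MB-231 became 1 without Int replicate 1, 0 without Int replicate 2, 1 without Par replicate 2, 4 without Par replicate 3 and 14 without Par replicate 1. Set directly against BrM, Lep had 8 higher and 2 lower in HCC1954 (10.5% and 6.54% of all genes), 1 higher and 0 lower in MDA-MB-231 (0.344% and 0.483%), 15 higher and 1 lower in PC9 (7.83% and 10.8%) and 16 higher and 0 lower in LLC (11.1% and 6.85%). In the same HCC1954 comparison, BrM with Par, IL1A and IL1B had log2 fold changes of -0.93 ± 0.32 and 0.22 ± 0.34. In LLC, Il6, Lcn2, Csf3, Ccl20, Icam1, Cxcl2 and Csf2 were also called higher in Int with Par, where the same limit on their selection applies. The part of interleukin-1 in the levels of the list was not tested.

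**Figure D4:**
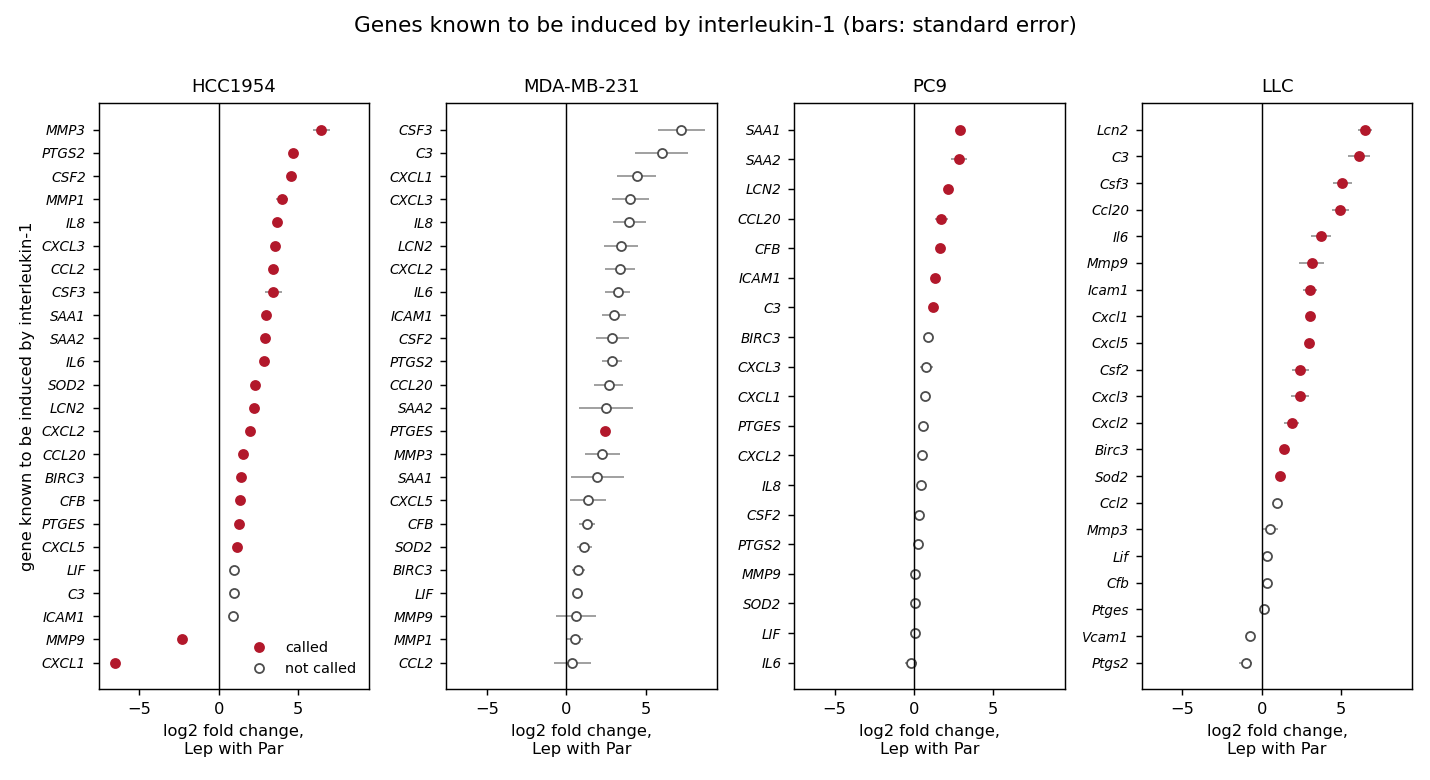
Log2 fold change in Lep with Par of each tested gene known to be induced by interleukin-1, by model; bars are standard errors, filled points called genes. In HCC1954 19 of 24 and in LLC 14 of 21 were called higher, and the MDA-MB-231 genes lie mostly to the right of 0 with wide errors.

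The genes whose levels ran most like each agonist were named by their Pearson correlation of log2(value + 1) over all libraries of a model. Over the 10 HCC1954 libraries these were ACSL4 (0.9969), IRF2BPL and TTBK2 for IL1A and GNA15 (0.9968), PARM1 and KATNAL1 for IL1B. Over the 10 MDA-MB-231 libraries IL1A and IL1B were each other's nearest gene (0.9811), followed by IL8 (now CXCL8, 0.9623) and KYNU for IL1A and KYNU (0.9799) and CSF3 for IL1B. In LLC, over 11 libraries, Lipa (0.9891), Pou6f1 and Rusc2 ran most like Il33, Cd44 (0.9861), Gfra2 and Adamts7 most like Il1rl1, and Erc2 (0.9776), Gm14137 and Arrb1 most like Il1r2. Libraries of 1 group share their cells, so these values rest on 4 groups per model and describe the pattern only.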

How the data were processed

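RNA-seq libraries of cultured tumour cells were prepared from polyadenylated RNA, per the labels' protocols. Values are the authors' deposited signal of read counts divided by size factors (normalized counts), 1 table per model. FastQC 0.11.3, HTSeq 0.5.4, DESeq2 and the builds hg19 and mm10 are named in the submitters' processing notes; no source used here names the aligner. In each library 100% of values were whole multiples of 1 step within a tolerance of 0.01, which gave back reads; for MDA-MB-231 Par replicate 1 the step was close to 1 and this check of the step was not passed.

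Within each model, log2(value + 1) was tested, for genes that reached 10 in 2 or more libraries, with limma 3.58.1 (trend, two-sided, all libraries in 1 fit, R 4.3.3), with Benjamini-Hochberg adjustment over all genes of each comparison. A call needed an adjusted p below 0.05 and a log2 fold change of at least 1 in size. The log2(value + 1) scale understates changes of low genes. Alternatives were pseudocount 5, no filter, quantile normalization, replicate number as a block, 2 groups only, each library left out, and count tests on the recovered reads with edgeR 4.0.16, which called 4203, 8, 2212 and 2780 genes in Lep with Par of HCC1954, MDA-MB-231, PC9 and LLC, and DESeq2 1.42.0. Removal of a length trend (lowess span 0.3) was added for MDA-MB-231 and PC9 after seeing the data. The code was tested on simulated data. Same-numbered BrM and Par libraries of MDA-MB-231 deviated together (correlations of 0.231 to 0.5 over 3 pairs). However, BrM replicate 2 correlated more with Par replicate 3 (0.337) than with Par replicate 2 (0.265). No label pairs the libraries, and the main fit did not pair them.

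The 9 genes, the lists and the tests were chosen with earlier results of these data known. All 9 were described. Other pathway genes were named where called in Lep with Par without overlap and averaging 100 or more in the group where they were higher, at most 4 per role and model. Il18bp, Il18rap, IL1RL2, IL1RAPL2 and Il18r1, and the marker genes, were named after their values were seen. For genes of like pattern, a highest value of at least 100 and a span of group means of at least 4-fold were required, and the 3 with the highest correlation were kept. Older symbols were matched through reference name tables. Python 3.11.15, pandas 2.3.3, numpy 2.4.6 and matplotlib 3.10.9 were used. Intervals on 0 reads cover counting error only.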

Additional observations from a re-analysis of the deposited data

Results flagged for a closer look

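IL1R2, the decoy receptor gene, differed in direction between models in BrM cells set against Par. In LLC, Il1r2 had a log2 fold change of 2.73 in BrM with Par, with 31.7, 41.5 and 44.4 normalized counts in BrM and 4.98, 5.31 and 4.76 in Par. These Par values were under 10, so the gene entered the LLC test only through derivative libraries. In HCC1954, IL1R2 had a log2 fold change of -1.52 in BrM with Par, with 12.9 and 10.4 normalized counts in BrM and 40.6, 39.1 and 27.7 in Par. Every BrM library lay above Par in the first model and below Par in the second, which is why both results are given again here. The difference between the models was not tested, because their tables were normalized separately.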

How the results depend on the processing

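In BrM with Par of MDA-MB-231 all 3 same-numbered pairs correlated above 0.1. So did BrM replicate 2 with Par replicate 3 (0.337) and BrM replicate 3 with Par replicate 2 (0.161). There the data did not settle whether replicate numbers pair the libraries, and elsewhere they did not show it. Correlations of deviations between same-numbered libraries ran from -0.0609 to 0.028 in HCC1954, -0.0905 to 0.5 in MDA-MB-231, -0.0269 to 0.096 in PC9 and -0.109 to 0.142 in LLC. With the replicate block, the number of family genes called in MDA-MB-231 Lep with BrM was 0 in place of 1, in BrM with Par of MDA-MB-231 it stayed at 0, and the other counts stayed within 1.5 times. Of 817 alternative values for 65 gene results, 740 kept their direction and side of the threshold, 43 lost a call, 32 gained one and 2 reversed; no called value changed sign among the 1900 values over all tested members. The reversed values were -0.60 for HCC1954 IL1B, Int with Par, without Int replicate 2, and -0.22 for PC9 IL1RN, Lep with Int, without Lep replicate 2; neither was called with all libraries, and without the other library of that group these results were 1.12 and 1.10.

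Counts of family genes called that moved were as follows, and their causes were not tested unless fewer libraries or genes entered the fit. In MDA-MB-231, Lep with Par (0) gave 3 by DESeq2, 1 with 2 groups only and 2 with the length trend removed; Int with Par (4) gave 2 without the filter and 2 with 2 groups only; Lep with BrM (1) gave 2 by DESeq2 and 0 with 2 groups only. In PC9, removal of the length trend gave 1 in Lep with Par (0) and 0 in Int with Par (1), quantile normalization gave 1 in BrM with Par (0), and 2 groups only gave 0 in Lep with Int (1). In LLC, 2 groups only gave 1 in Lep with Int (2). Calls over all genes also moved. In MDA-MB-231, Lep with Par (10) gave 274 by DESeq2, 4 with 2 groups only and 55 with the length trend removed. Int with Par (1049) gave 753 without the filter and 356 with 2 groups only. Lep with BrM (125) gave 740 by DESeq2 and 146 with 2 groups only. In PC9, under the same changes, Lep with Par (2191) gave 1822 and Int with Par (2019) 1644. BrM with Par (1118) gave 1084 and Lep with Int (88) gave 1. LLC Lep with Int (3036) gave 2678.

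Leaving out 1 library at a time, counts for Lep with Par, Int with Par, BrM with Par, Lep with Int and Lep with BrM ran from 6 to 6, 2 to 3, 3 to 4, 5 to 5 and 5 to 5 in HCC1954. They ran from 0 to 1, 0 to 5, 0 to 0, 0 to 1 and 0 to 0 in MDA-MB-231, from 0 to 1, 1 to 2, 0 to 1, 1 to 2 and 1 to 2 in PC9, and from 3 to 5, 2 to 3, 4 to 4, 1 to 3 and 4 to 5 in LLC. Quantile normalization changed the split of calls over all genes, to 1968 higher and 1649 lower in HCC1954 Int with Par, in place of 1027 and 2279, with the median of all genes at 0.124. The groups hold 2 or 3 libraries each, whose independence is not stated, and values of a few reads, such as those of Il1a in LLC and IL1RL1 in MDA-MB-231, are imprecise.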
